A study of Mus musculus with 10 samples.

Results

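10 transcription regulators of round spermatids (Crem, Fhl5, Taf7l, Tbpl1, Rfx2, Rfx3, Rfx4, Sox30, Tcfl5 and Sox5) were followed in RNA-seq of mouse testes with and without the RNA helicase MOV10. The members were taken by gene symbol, and all 10 were found among the 55421 genes of the count files and among the 20240 genes that passed the filter for testing. RNA came from testes at postnatal day 21 (P21) of 3 wild type mice (Mov10+/+, replicates 1, 2 and 3) and 3 global knockout mice (Mov10-/-, replicates 2, 3 and 4), with 1 pair of testes for each library. The knockout allele lacks the exons of the first helicase domain after deletion by Actb-Cre, which acts in all tissues, and only survivors of a partly lethal genotype were sampled, on a mixed background of 129, C57BL/6 and FVB mice. The labels do not say whether the wild type mice were littermates. The question was whether the regulators were lower in Mov10-/- testes together with spermatid genes, among them genes known to depend on CREM.

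Male germ cells leave meiosis as round spermatids, and a burst of transcription then makes the mRNAs for the acrosome, the flagellum and the compaction of chromatin. CREM, a factor of the cAMP response element family, drives much of this program with its coactivator FHL5, a LIM-domain protein also called ACT, and spermatids of mice without CREM do not mature. TAF7L and TBPL1 are germ-cell forms of the general transcription machinery, RFX2, RFX3 and RFX4 bind X-box elements of genes for cilia and flagella, SOX30 and SOX5 are high mobility group factors, and TCFL5 is a basic helix-loop-helix factor of meiotic and haploid cells. The first round spermatids of a mouse's life appear close to the age sampled here.

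The promoters of the members were read from RefSeq (GRCm38.p6, the build also called mm10), as 300 bases each, 250 before and 50 after an annotated start, and 11 such windows covered 9 members, all but Crem. 4 motifs were searched on both strands. The RFX half-site GTTGCC was found in the windows of Rfx2, Rfx3 and Sox5, and the SOX core AACAAT at 2 places in 1 of the 2 windows of Fhl5, with its first base at positions -44 and 25 from the start. They are shown because Fhl5 and Sox5 had the largest differences among the members, and the RFX half-site lay in the promoters of a regulator of that pair and of 2 RFX genes themselves. Capitals mark the motif, and all sequences are given 5′ to 3′ on the gene's strand, which is the minus strand for each.

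Rfx2, chr17:56831107-56831136: agcttggtaaccGTTGCCgggcgcaacgcc
Rfx3, chr19:28011118-28011147: gttatagcaaccGTTGCCttgtgaatcaag
Sox5, chr6:143947105-143947134: ctaagtgacttaGGCAACaggaatggttct
Fhl5 at -44, chr4:25242879-25242908: ggctcatgacatAACAATcggtgtcagcac
Fhl5 at 25, chr4:25242811-25242840: cagaaagcaggtAACAATcctgagttattt

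In Sox5 the RFX half-site is read as its reverse complement, GGCAAC. The RFX half-site occurred in 12.5% of the 32851 promoter windows of the table and the SOX core in 10.7%, so that matches of this kind are common. TGACG, the first 5 bases of the cAMP response element, was found in Rfx2 and Rfx4 (20.8% of all windows), and the full element TGACGTCA in 0 of the 11 member windows (1.79% of all windows). These matches describe the letters of the windows only, and binding was not measured.

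Reads on genes numbered 5083407 to 9230540 in each RNA-seq library, and Mov10-/- replicate 3 was the shallowest, with 57.2% of its reads not aligned. Levels are given as CPM, the reads on a gene scaled to the depth of the library with TMM factors. Mov10 itself checks the labels, with 114, 96.8 and 120 CPM in wild type and 29.2, 26.7 and 26.8 CPM in Mov10-/- libraries, and it was the 1 gene called (edgeR quasi-likelihood test with Benjamini-Hochberg adjustment, adjusted p = 0.00552). A call needed an adjusted p under 0.05 and more than a 2-fold difference. P-values measure the spread between these 3 and 3 mice.

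Of the 10 regulators, Fhl5 and Sox5 were far lower in Mov10-/- testes and the other 8 differed little. In the fit of edgeR, the mean of Fhl5 was 7.94-fold lower and that of Sox5 3.68-fold lower. The log2 fold changes of the other 8 members were between -0.50 and 0.18. The quasi-likelihood test called 0 of the 10 members lower, against 0.00494% of all genes tested, and 0 higher, against 0%. At an unadjusted p under 0.05, 3 members were lower (Fhl5, Sox5 and Rfx3; 11.9% of all genes tested) and 0 were higher (5.58%). DESeq2 and edgeR's exact test each called 2 members lower, Fhl5 and Sox5, beside 4.88% and 5.09% of all genes, while limma voom called 0 (0.00494%). A newer dispersion method of edgeR, added after the data were seen, also called 0 lower (0.0395%) and 0 higher (0.0346%). The groups of libraries did not overlap in 3 members, all lower in Mov10-/- testes (Crem, Fhl5 and Sox5; 14.1% of all genes tested), and in 0 members that were higher (11.9%).

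**Figure D1:**
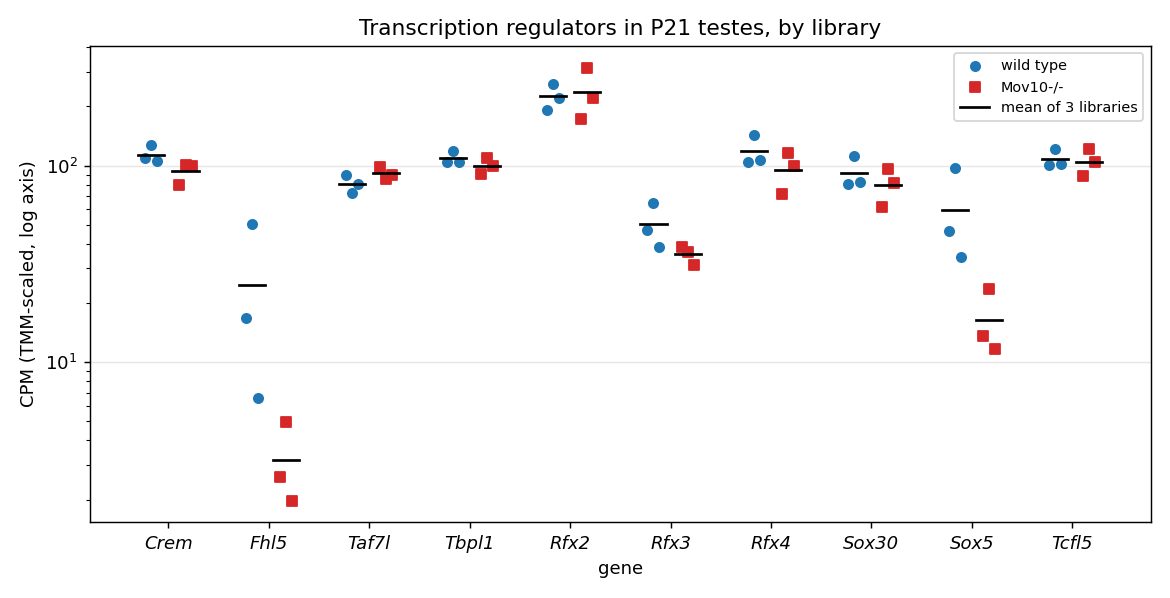
Level of each regulator in the 6 P21 testis libraries, in CPM on a log axis (circles wild type, squares Mov10-/-, bars the mean of 3 libraries). Fhl5 and Sox5 sit lower in all Mov10-/- libraries and are widely spread among the wild type ones, while the points of the remaining genes lie close together, with those of Crem just apart.

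Fhl5 (ENSMUSG00000028259, chromosome 4 of mm10, 25199908 to 25242876, minus strand), the coactivator of CREM, had 16.8, 50.7 and 6.55 CPM in wild type replicates 1, 2 and 3, from 143, 370 and 61 reads. In Mov10-/- replicates 2, 3 and 4 it had 2.61, 4.93 and 1.97 CPM, from 21, 24 and 16 reads. All 3 Mov10-/- libraries were below all 3 wild type libraries, but the lowest wild type and the highest Mov10-/- library were close. The log2 fold change was -2.99 (SE 0.76, 95% interval -4.74 to -1.24), which did not pass the quasi-likelihood test over all genes (unadjusted p = 0.00446, adjusted p = 0.150). The adjusted p was 0.00154 with DESeq2, 0.00634 with edgeR's exact test and 0.258 with limma voom. Wild type replicate 2 carried much of the size, since the log2 fold change was -1.92 without it. Among wild type libraries the highest level of Fhl5 was 7.73 times the lowest, which is about the size of the difference between genotypes.

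Sox5 (ENSMUSG00000041540, chromosome 6, 143828425 to 144781977, minus strand), a SOXD factor that the testis makes mainly as a short form, had 46.6, 97.1 and 34.4 CPM in wild type replicates 1, 2 and 3. In Mov10-/- replicates 2, 3 and 4 it had 13.6, 23.6 and 11.6 CPM. The groups did not overlap, and the order of the libraries was that of Fhl5: wild type replicate 2 was highest, followed by wild type replicates 1 and 3 and Mov10-/- replicates 3, 2 and 4. The log2 fold change was -1.88 (SE 0.43, 95% interval -2.88 to -0.88), with an unadjusted p of 0.00257 and an adjusted p of 0.150 in the quasi-likelihood test of edgeR. It was called by DESeq2 (adjusted p = 0.00114) and by edgeR's exact test (adjusted p = 0.00316) and not by limma voom (adjusted p = 0.253). Without wild type replicate 2 the log2 fold change was -1.33. The promoter window of Sox5 lies inside the annotated gene, and the counts do not separate long from short transcripts. Exons of the antisense gene Sox5os1 overlap 1330 bases of Sox5 exons, and its own mean level was 2.21 CPM in wild type and 0.206 CPM in Mov10-/- testes. How htseq-count was set for strand is not given in the sources used here, so reads of the pair may not be separated.

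Crem (ENSMUSG00000063889, chromosome 18, 3266048 to 3337748, minus strand) had 109, 127 and 106 CPM in wild type replicates 1, 2 and 3 and 79.5, 101 and 99.2 CPM in Mov10-/- replicates 2, 3 and 4. The groups did not overlap, by a small margin. The log2 fold change was -0.29 (SE 0.13, 95% interval -0.58 to 0.01; edgeR quasi-likelihood test, unadjusted p = 0.0565, adjusted p = 0.302). The whole interval lies above that of its coactivator Fhl5, which ends at -1.24. Crem makes activating and repressing isoforms from 1 gene, and a count per gene adds them up.

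The germ-cell forms of the general transcription machinery overlapped between genotypes. Taf7l (ENSMUSG00000009596, X chromosome), a homologue of the TFIID subunit TAF7, had 89.1, 72.6 and 80.9 CPM in wild type replicates 1, 2 and 3 and 98.8, 85.7 and 89.5 CPM in Mov10-/- replicates 2, 3 and 4. Its log2 fold change was 0.18 (95% interval -0.09 to 0.44), and it was lowest in wild type replicate 2, the library in which Fhl5 and Sox5 were highest. Tbpl1 (ENSMUSG00000071359, chromosome 10), a relative of the TATA-binding protein needed for the late steps of spermatid development, had 104, 118 and 104 CPM in wild type and 90.2, 109 and 99.4 CPM in Mov10-/- libraries, in the same order. Its log2 fold change was -0.13 (95% interval -0.38 to 0.12).

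Among the RFX factors, Rfx3 was the member with the next largest difference. Rfx3 (ENSMUSG00000040929, chromosome 19) had 47.1, 64.8 and 38.7 CPM in wild type replicates 1, 2 and 3, and 38.7, 36.2 and 31.2 CPM in Mov10-/- replicates 2, 3 and 4. Wild type replicate 3 and Mov10-/- replicate 2 were level, so the groups just overlapped. The log2 fold change was -0.50 (95% interval -0.98 to -0.02; edgeR quasi-likelihood test, unadjusted p = 0.0423, adjusted p = 0.266), and -0.27 without wild type replicate 2. Rfx4 (ENSMUSG00000020037, chromosome 10) had 104, 143 and 107 CPM in wild type and 71.3, 116 and 98.99 CPM in Mov10-/- libraries, a log2 fold change of -0.31 (95% interval -0.77 to 0.15). Rfx2 (ENSMUSG00000024206, chromosome 17), the main RFX factor of spermatids, had 192, 260 and 221 CPM in wild type and 173, 315 and 219 CPM in Mov10-/- libraries. The Mov10-/- libraries thus held both its highest and its lowest level, and its log2 fold change of 0.07 (95% interval -0.44 to 0.57) changed sign without Mov10-/- replicate 3 (-0.20) or wild type replicate 1 (-0.054).

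Sox30 (ENSMUSG00000040489, chromosome 11), which round spermatids need to go on developing, had 80.1, 112 and 82.9 CPM in wild type and 61.4, 96.0 and 81.7 CPM in Mov10-/- libraries, a log2 fold change of -0.20 (95% interval -0.65 to 0.24). Tcfl5 (ENSMUSG00000038932, chromosome 2) had 101, 121 and 102 CPM in wild type and 88.3, 121 and 104 CPM in Mov10-/- libraries, a log2 fold change of -0.05 (95% interval -0.37 to 0.28). Both overlapped between genotypes. In Crem, Rfx2, Rfx4, Sox30, Tbpl1 and Tcfl5, Mov10-/- replicate 2 was the lowest of all libraries. Without that library the log2 fold change of Crem was -0.18. The exons of Crem, Tbpl1 and Tcfl5 also overlap genes of the opposite strand by 472, 407 and 234 bases. Those genes had mean levels of 13.6, 29.5 and 9.49 CPM in wild type and 8.62, 34.3 and 14.7 CPM in Mov10-/- testes. Reads of these pairs may not be separated either.

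Per length, 8 members had similar levels in wild type testes and 2 were lower. In RPKM (CPM per kilobase of annotated exon), the means were 36.0 for Taf7l, 34.0 for Tcfl5, 33.3 for Tbpl1, 30.7 for Rfx2, 30.6 for Sox30, 25.0 for Rfx4, 21.1 for Fhl5 and 19.3 for Crem. Rfx3 and Sox5 followed with 4.55 and 4.13 RPKM. From Taf7l to Rfx4 each gene's range over the wild type libraries overlapped that of the next, and so did those of Rfx3 (3.50 to 5.87) and Sox5 (2.39 to 6.75). The range of Crem (17.9 to 21.5) lay below that of Rfx4 (22.1 to 30.2). Fhl5, from 5.60 to 43.3 RPKM, covered the ranges of most others. The length counts all annotated exons of a gene, and Rfx3 and Sox5 have the longest sums, 11034 and 14376 bases.

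Spermatid genes were described with 2 lists. The first held 6 genes known to depend on CREM (Prm1, Prm2, Tnp1, Tnp2, Odf1 and Smcp), which encode protamines, transition proteins and parts of the flagellum. 5 of the 6 were tested, and all 5 were lower in Mov10-/- testes at an unadjusted p under 0.05 (11.9% of all genes tested). Of these 5, 1 was lower with no overlap between the genotypes (14.1% of all genes tested). The log2 fold changes of the 5 had a median of -3.38, against 0.03 over all genes tested. The second list held 34 other round spermatid genes, for the acrosome, fibrous sheath, spermatid kinases and ion channels. They were chosen as genes of the cell type, and whether they depend on the regulators was not tested. Of the 33 tested, 28 were lower (11.9% of all genes tested) and 0 higher (5.58%) at an unadjusted p under 0.05. 24 were lower with no overlap between the genotypes (14.1% of all genes tested), and the median log2 fold change was -2.17. In neither list did a gene pass the quasi-likelihood test of edgeR over all genes (0 lower and 0 higher in each, against 0.00494% and 0% of all genes tested). DESeq2 called 5 genes of the first and 22 of the second list lower (4.88% of all genes tested). edgeR's exact test called 3 and 23 lower (5.09%). Without wild type replicate 2 the medians were -2.18 and -1.40. In whole testes, fewer spermatids and less RNA per spermatid cannot be told apart.

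Tnp2, a transition protein that replaces histones, had 8.60, 47.5 and 2.58 CPM in wild type replicates 1, 2 and 3 and 0, 1.44 and 0.247 CPM in Mov10-/- replicates 2, 3 and 4, without overlap. Prm2 and Tnp1 had 1.61 and 3.22 CPM in wild type replicate 3 against 1.85 and 3.50 CPM in Mov10-/- replicate 3, so these 2 libraries were level. Prm1 did not pass the filter, with 35, 188 and 8 reads in wild type and 1, 4 and 5 reads in Mov10-/- libraries. The more abundant Odf1 and Smcp, of the outer dense fibres and the mitochondrial capsule, had log2 fold changes of -1.72 and -1.58 (-1.13 and -1.14 without wild type replicate 2) and overlapped between genotypes.

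In the second list, Cabs1, a calcium-binding protein of late spermatids, had 85, 406 and 13 reads in wild type replicates 1, 2 and 3 and 5, 1 and 3 reads in Mov10-/- replicates 2, 3 and 4. Cabs1 and Spem1 passed the filter through their wild type libraries alone, so these 2 genes had to differ. They are no support for the counts, the calls or the median of the list, all of which include them. Izumo1, the sperm protein that binds the egg, had a log2 fold change of -2.57, and Akap3 and Ropn1 of the fibrous sheath had -1.81 and -2.50. Without wild type replicate 2 these values were -1.74, -1.34 and -1.89. The acrosomal genes Zpbp and Zpbp2 had -0.55 and -0.16. The adjusted p of Izumo1, Akap3, Ropn1 and Zpbp was 0.150 each in edgeR's quasi-likelihood test.

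Set beside these lists, Fhl5 and Sox5 had values of the same size and the other 8 regulators did not. On the scale of log2(CPM + 1) relative to the wild type mean, the Mov10-/- mean was -1.77 ± 0.66 (SD, n = 3) for the 34 round spermatid genes and -2.23 ± 0.69 for the 6 CREM-dependent genes. It was -2.26 ± 0.51 for Fhl5, -1.73 ± 0.51 for Sox5 and -0.29 ± 0.19 for Crem. The wild type libraries spread more, with SDs of 0.99 for the round spermatid genes, 1.51 for the CREM-dependent genes, 1.39 for Fhl5 and 0.76 for Sox5. The round spermatid mean includes Cabs1 and Spem1, which had to differ, and Fscn3, which did not pass the filter. The CREM-dependent mean includes Prm1, which did not pass it either. The remaining 7 members had Mov10-/- means from -0.47 (Rfx3) to 0.18 (Taf7l). The 95% intervals of the log2 fold change of these 7 and of Crem had lower limits between -0.98 and -0.09, all above the medians of both lists, including their values without wild type replicate 2.

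**Figure D2:**
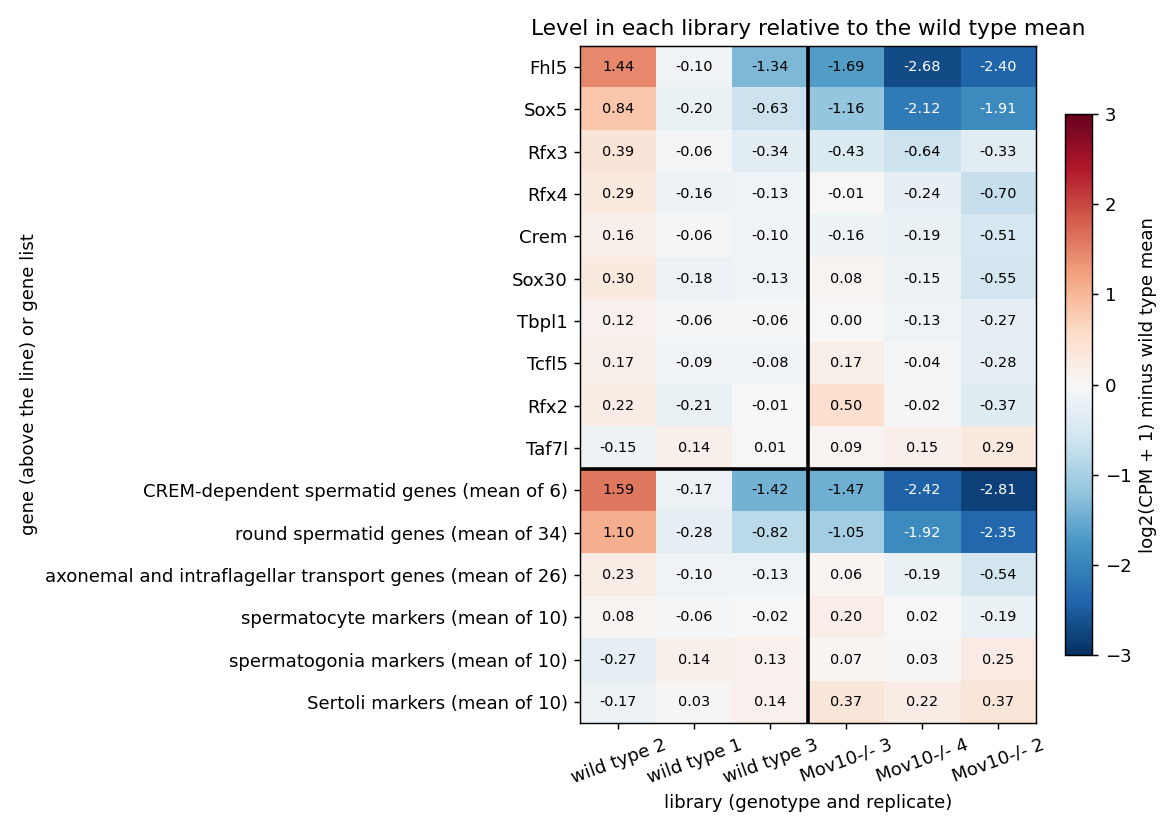
Level in each library relative to the mean of the wild type libraries, as log2(CPM + 1), for the 10 regulators (above the line) and for the mean of each gene list (below it), with blue for lower and red for higher. Fhl5 and Sox5 carry the colours of the 2 spermatid lists in every library, from 1.44 and 0.84 in wild type replicate 2 to -2.68 and -2.12 in Mov10-/- replicate 4, and the other rows stay pale.

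The order of the libraries within each genotype was as follows. Wild type replicate 2 was highest and wild type replicate 3 lowest of the wild type libraries in Fhl5, Sox5, Crem, Rfx3 and both spermatid lists, with 1.59 and -1.42 for the CREM-dependent genes. The axonemal and other regulator lists, described below, had the same highest and lowest wild type libraries. Among Mov10-/- libraries, replicate 3 was highest in both spermatid lists, in the axonemal, partner and other regulator lists, and in every member but Taf7l and Rfx3. Crem had the full order of both spermatid lists, while Fhl5 and Sox5 had Mov10-/- replicates 2 and 4 in the reverse order. In Rfx2 and Tcfl5, Mov10-/- replicate 3 was the highest of all 6 libraries, and spermatocyte markers also had their highest mean there (0.20). These are orders of 6 libraries, given as a description.

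Markers of other cells had smaller differences. Spermatocyte markers, led by Sycp2, had a median log2 fold change of 0.08, and their summed level overlapped (1725 to 1892 CPM in wild type and 1620 to 2147 CPM in Mov10-/- testes). Spermatogonia markers, led by Kit, had 0.15 and overlapped (389 to 516 and 491 to 560 CPM). Sertoli markers, led by Clu, had 0.35, and their sum was higher in every Mov10-/- library (827 to 993 CPM) than in every wild type library (664 to 782 CPM). At an unadjusted p under 0.05, 4 of the 9 tested Sertoli markers were higher (5.58% of all genes tested) and 0 lower (11.9%). Leydig markers, led by Cyp11a1, and peritubular, endothelial and macrophage markers, led by Myh11, had medians of 0.25 and 0.32, with overlapping sums (329 to 590 against 438 to 643 CPM, and 460 to 638 against 623 to 782 CPM). At the same threshold, 2 of the 8 peritubular, endothelial and macrophage markers were higher (5.58% of all genes tested) and 0 lower (11.9%). Of the 7 tested Leydig markers, 0 were higher and 0 lower. No marker was at 0 in all libraries. The part of these cells in the levels of the regulators was not tested.

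Genes for the axoneme and for intraflagellar transport, the kind of gene that RFX factors bind, had small differences, most of them negative. Of the 26 genes, all tested, 24 had a negative and 2 a positive log2 fold change, against 9352 and 10888 of all 20240 genes tested. The median was -0.22, against 0.03 over all genes tested. With each library left out in turn, the median of the list ranged from -0.35 to -0.03. On the scale of log2(CPM + 1) relative to the wild type mean, the list had -0.54, 0.06 and -0.19 in Mov10-/- replicates 2, 3 and 4. The genes share the same libraries, so the 24 and 2 are not independent counts. At an unadjusted p under 0.05, 2 were lower and 0 higher, which is no larger a share than over all genes tested (11.9% and 5.58%). The genotypes did not overlap in 5 genes, all lower (14.1% of all genes tested). The most abundant, the dynein heavy chains Dnah2 and Dnah1, had values of -0.18 each. The 2 genes lower at an unadjusted p under 0.05 were Dnaic2 (-0.66), an intermediate chain of the outer dynein arm, and Spag16 (-0.44), of the central pair of microtubules. They are among the 5 genes without overlap, with Ift74 (-0.25), Ift81 (-0.23) and Bbs4 (-0.21). Tekt2 and Spag17 had -0.62 and -0.36 and overlapped.

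**Figure D3:**
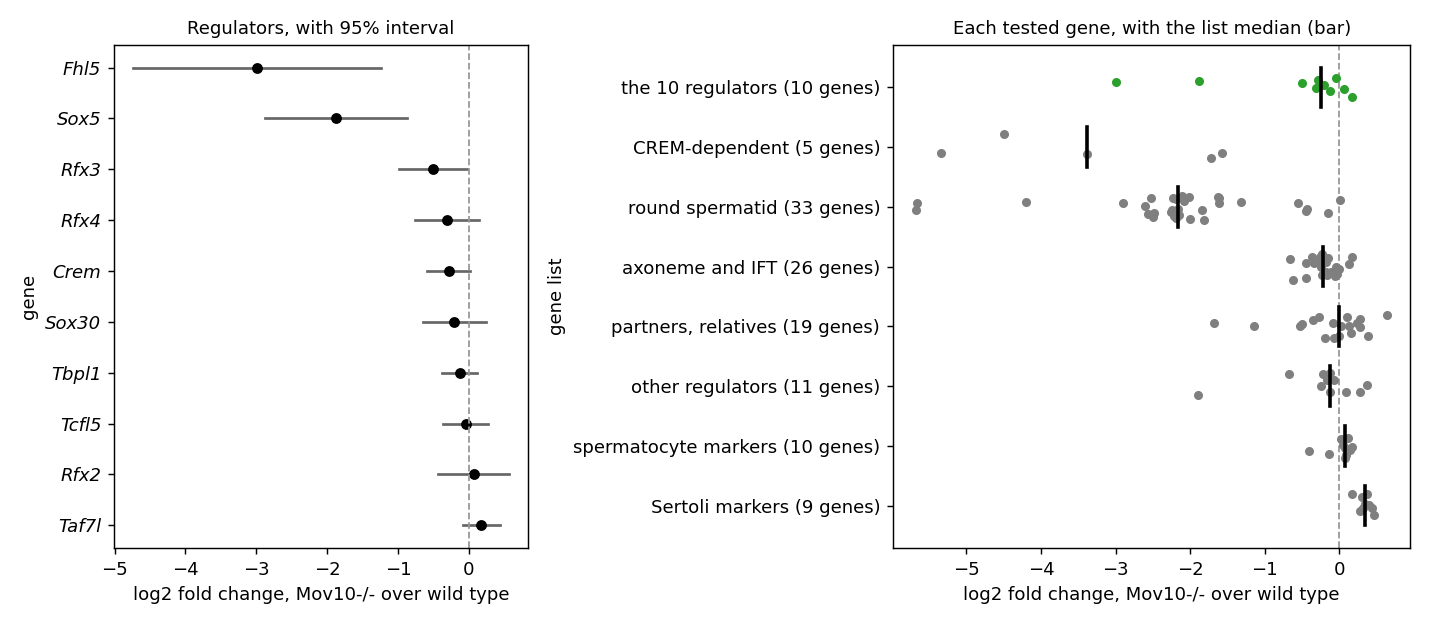
Log2 fold change of Mov10-/- over wild type testes for the 10 regulators with the 95% interval of the edgeR fit (left), and for each tested gene of the lists, with the median as a bar (right; IFT is intraflagellar transport). The intervals of Fhl5 and Sox5 lie below -0.88, those of the other 8 above -0.98, and the medians of the CREM-dependent (-3.38) and round spermatid genes (-2.17) stand apart from those of the remaining lists.

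Partners and relatives of the regulators had mostly small differences. Of 21 genes, 19 were tested, 3 were lower and 1 was higher at an unadjusted p under 0.05, shares close to those over all genes tested (11.9% and 5.58%), and the median log2 fold change was -0.01. Kif17, the motor protein that carries FHL5 out of the nucleus, had 81.1, 199 and 58.4 CPM in wild type replicates 1, 2 and 3 and 19.97, 58.6 and 28.9 CPM in Mov10-/- replicates 2, 3 and 4. Its log2 fold change was -1.68 (SE 0.53; edgeR quasi-likelihood test, adjusted p = 0.182), and Mov10-/- replicate 3 was level with wild type replicate 3. It was called by edgeR's exact test (adjusted p = 0.0338) and not by DESeq2 (0.139) or limma voom (0.254), and its log2 fold change was -0.99 without wild type replicate 2. The genotypes did not overlap in 2 tested genes of this list that were lower and in 3 that were higher. Over all genes tested these shares were 14.1% and 11.9%. Foxj1, a factor for motile cilia, had -1.14 (-0.67 without wild type replicate 2), and Rfx8, a further RFX gene, had -0.53, both without overlap. Fhl3 was higher in every Mov10-/- library (0.64), and Fhl4, the most abundant gene of the list and a testis LIM protein like FHL5, had -0.07. The ubiquitous factors Creb1, Atf1, Taf7 and Tbp had log2 fold changes of 0.02, -0.01, 0.13 and -0.19. Sox6, another SOXD gene, had -0.35 and overlapped between genotypes, unlike Sox5. Tbpl2, which belongs to the oocyte, had 0 reads in all 6 libraries.

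Other regulators of meiotic and haploid transcription also differed little for the most part. Of 11 genes, all tested, 2 were lower and 1 higher at an unadjusted p under 0.05, with a median log2 fold change of -0.13. In a list of this size the shares over all genes tested (11.9% and 5.58%) come to similar counts. The genotypes did not overlap in 2 genes that were lower and in 2 that were higher, beside 14.1% and 11.9% of all genes tested. Spz1, a helix-loop-helix factor of germ cells, had 62.3, 119 and 44.3 CPM in wild type replicates 1, 2 and 3 and 10.4, 33.1 and 18.0 CPM in Mov10-/- replicates 2, 3 and 4, a log2 fold change of -1.90 (SE 0.48; edgeR quasi-likelihood test, adjusted p = 0.150). It was called by DESeq2 (adjusted p = 0.00222) and edgeR's exact test (adjusted p = 0.00637) and not by limma voom (adjusted p = 0.253), and without wild type replicate 2 its log2 fold change was -1.40. Zmynd15, a corepressor of haploid germ cells, had -0.67 without overlap. Stra8 and its partner Gm4969 (now Meiosin), which start meiosis, were higher in every Mov10-/- library, with 0.38 and 0.28. The abundant Zfp541 and Brwd1 had -0.21 and 0.09.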

How the data were processed

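Each deposited file holds unnormalized counts by Ensembl gene. To make them, the authors trimmed adapters, aligned reads to mm10 with STAR, and ran htseq-count with the Ensembl v99 annotation. Per the labels, all RNA was from testis. Rows that name no gene held 52.8% to 71.7% of the RNA-seq reads and were left out. Names, coordinates and exon lengths came from GENCODE M21 on mm10, which matched 55240 of 55421 genes.

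Genes that exceeded 1 RPM in 3 or more RNA-seq libraries were fitted with edgeR 4.0.16 in R 4.3.3 (TMM, quasi-likelihood test, Benjamini-Hochberg adjustment over 20240 genes). Standard errors are the log2 fold change over the square root of F. DESeq2 1.42.0, edgeR's exact test, limma 3.58.1 (voom), another normalization, other filters, a replicate block and each library left out were alternatives. All members and Mov10 were named, and in each list up to 4 genes with the lowest p and 2 with the highest level; further genes were named after their values were seen. Members and lists were chosen with earlier results of these data known. Figures used Python 3.11.15.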

Additional observations from a re-analysis of the deposited data

Results flagged for a closer look

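MOV10 CLIP-seq of wild type P21 testes (4 libraries, replicates 1, 2, 3 and 5) gave few reads on the regulators, as on genes in general. Of the reads in these libraries, 99.5% to 99.6% were not aligned and 0.026% to 0.052% lay on genes. Few reads on a regulator thus say little about binding. In Crem, Tbpl1 and Rfx2, replicate 5 held 1 read each and the others 0, which was flagged as a library apart from the rest. A single read beside 0 in the others always meets that rule, so 1 read does not set a library apart. The rule's chance rate of about 1 in 20 groups of independent libraries does not hold for such counts. Replicates 1, 2 and 3 also differed by less than the sampling noise, so these 4 are not independent libraries.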

How the results depend on the processing

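The number of members called depended on the tool. DESeq2 called 988 genes lower and 51 higher, with 2 members lower, Fhl5 (log2 fold change -3.01) and Sox5 (-1.90). edgeR's exact test called 1031 and 70, with the same 2 members (-2.97 and -1.87). Without a filter on low counts 5 genes were lower and 5 higher, limma voom called 1 higher, and edgeR's newer dispersion method (added after the data were seen) called 8 and 7, with 0 members in each of the 3. With each library left out in turn 0 to 1 genes were lower (0 without Mov10-/- replicate 3 or 4) and 0 members were called. The log2 fold change then ranged from -0.20 to 0.25 in Rfx2, -0.16 to 0.064 in Tcfl5, -0.40 to 0.019 in Dnah1, -0.38 to 0.015 in Dnah2 and -0.25 to 0.051 in Fhl4, all of them reversed at 1 end, and the median of the CREM-dependent genes from -4.42 to -2.18. Wild type and Mov10-/- libraries share only the replicate numbers 2 and 3, so the numbers give no full pairing. Same-numbered libraries deviated in opposite directions (correlations across genes of -0.45 and -0.34), and the other pairs had correlations from -0.21 to 0.44. Deviations were taken from the mean of each genotype, so these correlations cannot decide whether mice were paired. The replicate block called 148 genes lower and 36 higher, 0 of them members. It gave Rfx2 -0.041 and the peritubular, endothelial and macrophage markers a median of 0.53. The causes were not tested. Of 140 values for members under an alternative, 131 kept their direction and their side of the threshold. Of 154 list medians, 152 moved by less than the spread between libraries. With each library left out, the medians of the spermatocyte markers (-0.049 to 0.13) and of the partners and relatives (-0.065 to 0.044) nevertheless changed sign. With 16 to 24 reads on Fhl5 in each Mov10-/- library, counting error limits its fold change.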

Other observations

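The 4 CLIP-seq libraries held 3404 to 4934 reads on genes, of which 2, 1, 1 and 3 lay on the regulators in replicates 1, 2, 3 and 5. Rfx3 had 2, 1, 1 and 0 of them, and Fhl5, Taf7l, Rfx4, Sox30, Tcfl5 and Sox5 had 0 in each library, which allows up to 3 reads, counting error only. Replicates 1, 2 and 3 differed by less than the sampling noise (chi-square over degrees of freedom 0.219 to 0.237, against 1.63 to 1.93 with replicate 5), and count as 1 sample, so the reads of the 4 libraries are not summed.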
